A study of Mus musculus with 2 samples.

Results

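The 121 genes described here encode subunits of the mitochondrial complexes of oxidative phosphorylation, or other transcripts of the mitochondrial genome, in single-nucleus libraries of mouse salivary gland. They were chosen by symbol, not by measured values: symbols that start with mt-, with Nduf followed by the letter a, b, c, s or v and a digit, with Cox4 to Cox8, with Uqcr or with Atp5. These rules matched 121 of 26033 genes in the files, of which 84 are encoded in the nucleus and 37 carry the mt- prefix. The nuclear-encoded genes were kept by complex: 37 of complex I, 8 of complex III, 21 of complex IV and 18 of complex V. The symbol Atp5o stood on 2 gene identifiers, so the 84 genes had 83 symbols. The mt- genes were 13 mRNAs, 2 rRNAs and 22 tRNAs. The subunits of complex II and cytochrome c have symbols outside these patterns and are not among the 121. The ATP synthase inhibitor Atp5if1 is also known as Atpif1, a symbol outside the patterns, and is not among the 121 either.

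There were 2 libraries, 1 from the salivary gland of mice lacking Csf2 (genotype label C56BL/6 Csf2-/-, hereafter null) and 1 from Csf2 heterozygotes (C56BL/6 Csf2+/-, the control, hereafter heterozygous). Both came from mice 20 days old, no cell type was selected, and no further treatment was stated. Csf2 encodes GM-CSF, a cytokine that acts on macrophages and other myeloid cells. Both groups carried at least 1 Csf2-null allele, there was no wild-type library, and the number of mice behind each library was not stated. With 1 library per genotype there was no replicate check and no test between genotypes. All intervals given are 95% intervals that cover counting error only.

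Oxidative phosphorylation passes electrons from NADH and succinate through complexes I to IV of the inner mitochondrial membrane to oxygen, and complex V, the ATP synthase, uses the resulting proton gradient to make ATP. Complexes I, III, IV and V are built from subunits encoded in both genomes: the nuclear-encoded subunits are translated in the cytosol and imported, and the mt- transcripts are made and translated inside the organelle. The striated ducts of salivary glands, which take up sodium and chloride from saliva by active transport, are known for their dense mitochondria.

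The null library held 75630815 UMIs in 74339 barcodes and the heterozygous library 76002888 UMIs in 68460 barcodes. Most barcodes, 56671 in the null and 49061 in the heterozygous library, had fewer than 1000 UMIs and were summed as free RNA, the RNA outside nuclei that droplets take up. Barcodes of 1000 UMIs or more formed 21 clusters, of which 2 resembled free RNA in their secretory transcripts. The other barcodes, 13881 in the null and 8511 in the heterozygous library, were taken as nuclei, with median depths of 1976 and 2823 UMIs. The clusters were made without the 121 genes. They were named from marker genes where at least 3 markers stood out and further conditions given below were met. The libraries shared 1367 barcodes, 1.84% of the null and 1.997% of the heterozygous ones. The targeted gene, Csf2, had 0 UMIs in the null and 5 in the heterozygous library, too few to check the labels.

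Free RNA held a larger share of nuclear-encoded oxidative phosphorylation transcripts in the null library. These 84 genes took 0.976% of free-RNA UMIs in the null library (0.973 to 0.979) and 0.762% in the heterozygous library (0.760 to 0.765), a log2 ratio of null over heterozygous of 0.36 (0.35 to 0.36). The mt- genes took 1.33% in the null and 1.24% in the heterozygous library, a log2 ratio of 0.10 (0.09 to 0.11). The free RNA of the libraries also differed in its largest component. The 8 most abundant secretory transcripts (Mucl2, Scgb1b27, Scgb2b27, Prol1, Scgb2b26, Smgc, Pip and Car6) took 45.4% of free RNA in the null and 36.7% in the heterozygous library, and ribosomal protein genes took 3.88% in the null and 2.67% in the heterozygous library. Free RNA is a mixture from all cells of the gland, so fewer cells of a type and less RNA per cell cannot be told apart in it.

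The CPM of a gene is its UMIs scaled to 1000000 UMIs of the same pool. A gene was counted as higher or lower past a log2 ratio of 0.5 in size, with at least 50 UMIs over both libraries. Of the 84 nuclear-encoded genes, 79 had that many in free RNA. Among them 14 were higher and 1 was lower in the null library, where 5.65% of all 14118 genes measured were higher and 32.8% were lower. The median log2 ratio was 0.37 over the 79 genes and -0.31 over all genes, and 72 of the 79 ratios were above 0. Relative to the median of all genes, 63 of the 79 genes were higher by 0.5 or more and 0 were lower. The shares of all genes given above do not apply to this centred limit, and none is given for it. The centre also depends on gene span. The median ratio of all genes was 0.01 for spans under 5 kb and -0.58 at 50 kb or more, and most of the nuclear-encoded genes span less than 20 kb. The centred count therefore does not compare them with genes of like span. The 5 genes below the count minimum were Ndufb11b, with 0 UMIs in both libraries, and the tissue-restricted isoforms Cox4i2, Cox6a2, Cox7b2 and Cox8c.

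Complex I oxidises NADH at a flavin and a chain of iron-sulphur clusters in its peripheral arm. Of its 36 measured genes, 8 were higher and 1 was lower in null free RNA, with a median log2 ratio of 0.36. Ndufb9, an accessory subunit of the membrane arm and the complex I gene with the most UMIs, had 8956 UMIs (219.5 CPM) in the null and 4865 UMIs (131.2 CPM) in the heterozygous library, a log2 ratio of 0.74 (0.69 to 0.79). Ndufs7, which carries the last cluster before ubiquinone, had 69.6 CPM in the null and 42.5 CPM in the heterozygous library (log2 ratio 0.71). Ndufa13, an accessory subunit also known as GRIM-19, had 127 CPM in the null and 79.0 CPM in the heterozygous library (log2 ratio 0.68). Ndufb11, another membrane-arm subunit, stood at 0.61 on the same scale. The opposite was seen for Ndufs1, the largest core subunit of the peripheral arm, which had 1956 UMIs (47.9 CPM) in the null and 2721 UMIs (73.4 CPM) in the heterozygous library, a log2 ratio of -0.61 (-0.70 to -0.53). Ndufs4, a peripheral-arm subunit whose loss in mice gives a Leigh-like encephalopathy, had 98.3 CPM in the null and 116 CPM in the heterozygous library (log2 ratio -0.24). The core subunit Ndufv2 had a log2 ratio of -0.17. Among the other complex I genes with the most UMIs, the log2 ratio was 0.48 for Ndufa6, 0.51 for Ndufc1 and 0.30 for Ndufb1.

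Complex III passes electrons from ubiquinol to cytochrome c. None of its 8 genes passed the fold in free RNA, but 7 of 8 log2 ratios were above 0, with a median of 0.40. Uqcrh, the acidic hinge subunit that docks cytochrome c, had 9890 UMIs in the null and 6638 UMIs in the heterozygous library (log2 ratio 0.44). The small subunits Uqcr11, Uqcrq, Uqcrb and Uqcr10 had ratios between 0.40 and 0.44. The exception was Uqcrc2, a core protein related to processing peptidases, with 2455 UMIs (60.2 CPM) in the null and 2555 UMIs (68.9 CPM) in the heterozygous library, a log2 ratio of -0.20.

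Complex IV, cytochrome c oxidase, reduces oxygen to water. Of its 17 measured nuclear-encoded genes 5 were higher and 0 were lower in null free RNA, with a median log2 ratio of 0.40. Cox7c, the nuclear-encoded oxidative phosphorylation gene with the most UMIs, had 15570 UMIs (382 CPM) in the null and 9998 UMIs (270 CPM) in the heterozygous library, a log2 ratio of 0.50. Cox4i1, the isoform of subunit 4 found in most tissues, had 14723 UMIs in the null and 9395 UMIs in the heterozygous library (log2 ratio 0.51). Cox8a, the common isoform of subunit 8, had 11616 UMIs (284.8 CPM) in the null and 6851 UMIs (184.8 CPM) in the heterozygous library, a log2 ratio of 0.62 (0.58 to 0.67). Cox6c and Cox7b, 2 other small subunits, had ratios of 0.34 and 0.33.

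Complex V is the ATP synthase, with a catalytic F1 head and a membrane-embedded rotor. All 18 of its nuclear-encoded genes had log2 ratios above 0, but 1 passed the fold (Atp5d, the delta subunit of the central stalk, at 0.52), and the median was 0.30. Atp5b, the catalytic beta subunit, had 11280 UMIs (276 CPM) in the null and 10081 UMIs (272 CPM) in the heterozygous library, a log2 ratio of 0.02 (-0.01 to 0.06). Atp5a1, the alpha subunit, had a ratio of 0.10, and Atp5g3, a gene for the rotor c-ring, 0.13. Atp5e, the epsilon subunit, had 10660 UMIs in the null and 7225 UMIs in the heterozygous library (log2 ratio 0.42), and Atp5l, the g subunit, had 0.28.

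**Figure D1:**
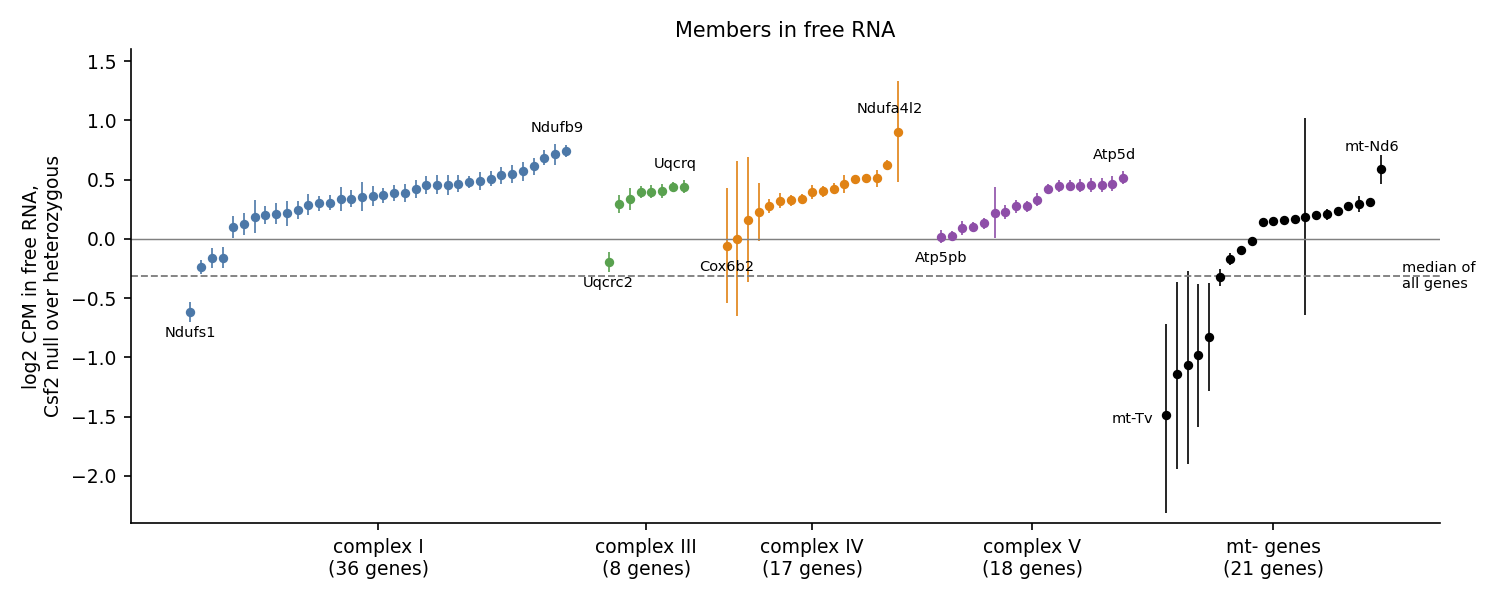
Log2 ratio of CPM in free RNA, null over heterozygous, for each nuclear-encoded gene by complex and for each mt- gene with at least 50 UMIs over both libraries. Bars are 95% counting intervals, genes are sorted within each block, and the dashed line is the median of all genes (-0.31). Most nuclear-encoded genes lie between 0 and 0.75, Ndufs1 lies below the median of all genes, and 5 of 6 mt- tRNA genes lie at the low end of the mt- block.

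The mt- mRNAs were shifted less in free RNA. Of the 13 mt- mRNAs 1 was higher and 0 were lower past the fold, with a median log2 ratio of 0.20. The 3 complex IV subunits had the most UMIs of a complex: mt-Co1, the catalytic subunit, had 76129 UMIs (1866 CPM) in the null and 55765 UMIs (1504 CPM) in the heterozygous library, a log2 ratio of 0.31. The ratio was 0.28 for mt-Co2 and 0.20 for mt-Co3. For the proton channel subunit mt-Atp6 there were 64884 UMIs in the null and 53058 UMIs in the heterozygous library (log2 ratio 0.15), and for cytochrome b, mt-Cytb, the ratio was 0.16. Among the complex I subunits the ratio was 0.23 for mt-Nd1, 0.14 for mt-Nd2, -0.17 for mt-Nd3, 0.16 for mt-Nd4, 0.30 for mt-Nd4l and 0.21 for mt-Nd5. The exception past the fold was mt-Nd6, the mRNA encoded on the strand opposite to the other 12, with 1446 UMIs in the null and 876 UMIs in the heterozygous library (log2 ratio 0.59, 0.46 to 0.71). The second subunit of the ATP synthase, mt-Atp8, had 2881 UMIs in the null and 3280 UMIs in the heterozygous library, a log2 ratio of -0.33.

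The rRNAs were the largest single mt- transcripts. For mt-Rnr2 there were 130782 UMIs in the null and 126992 UMIs in the heterozygous library (log2 ratio -0.10), and for mt-Rnr1 the log2 ratio was -0.01. The tRNAs were rare: all 22 together had 360 UMIs in the null and 597 UMIs in the heterozygous library, a log2 ratio of -0.87 (-1.06 to -0.68). Only 6 tRNA genes had at least 50 UMIs, and 5 of them were lower in the null library. They were mt-Tv with 20 and 51 UMIs in null and heterozygous free RNA, mt-Tn with 22 and 44, mt-Tw with 21 and 40, mt-Ts2 with 38 and 68, and mt-Ta with 67 and 108. The exception, mt-Tm, had 30 and 24. The other 16 tRNA genes had between 0 and 27 null UMIs and between 2 and 32 heterozygous UMIs each.

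The nuclear-encoded genes differed in how far they were depleted from nuclei. Over all nuclei these genes took 0.520% of UMIs in the null and 0.412% in the heterozygous library, and the mt- genes took 0.481% in the null and 0.373% in the heterozygous library. Measured against free RNA of the same library, 62 of 78 nuclear-encoded genes with enough UMIs were lower in nuclei past the fold in both libraries and 2 were higher. Over all 14096 genes 5.4% were lower and 46.4% were higher. The median log2 ratio of nuclei over free RNA was -1.04 in the null and -0.996 in the heterozygous library for the 78 genes, and 0.74 in the null and 0.48 in the heterozygous library for all genes. All 13 mt- mRNAs and both mt- rRNAs were lower in nuclei, with mRNA medians of -1.45 in the null and -1.70 in the heterozygous library, and 84 of 97 ribosomal protein genes were lower too.

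By complex, 27 of 36 genes of complex I, 6 of 8 of complex III, 14 of 16 of complex IV and 15 of 18 of complex V were lower in nuclei. Cox7c had 215.8 CPM in null nuclei and 143 CPM in heterozygous nuclei, a log2 ratio to free RNA of -0.82 in the null and -0.92 in the heterozygous library. Ndufa1, a small membrane-arm subunit, had ratios of -1.30 in the null and -1.60 in the heterozygous library. The genes above free RNA were Ndufs4, with 155.1 CPM in null nuclei and 176.1 CPM in heterozygous nuclei (0.66 in the null and 0.60 in the heterozygous library), and the Atp5o identifier ENSMUSG00000116933, with 40.9 CPM in null nuclei and 34.6 CPM in heterozygous nuclei (2.01 in the null and 1.99 in the heterozygous library). In the GENCODE annotation this Atp5o gene model spans 242585 bases and overlaps Cryzl1 on the same strand and Itsn1 on the other, so its UMIs may belong to its neighbours, and it is uncertain as a measure of Atp5o. Ndufs1 (0.34 in the null and -0.07 in the heterozygous library), Ndufa10 (0.13 and 0.02) and Uqcrc2 (0.10 and -0.06) lay near 0.

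Most genes at or above their free-RNA level in nuclei were long. Of the 78 genes, the 27 that span less than 5 kb had median log2 ratios of nuclei over free RNA of -1.12 in the null and -1.13 in the heterozygous library, and the 42 of 5 to 20 kb had -1.06 and -1.03. The 7 of 20 to 50 kb had -0.09 and -0.13, and the 2 of 50 kb or more, Ndufs4 and the uncertain Atp5o model, had 1.33 and 1.297. Spearman's rho with span was 0.43 in the null and 0.47 in the heterozygous library over the 78 genes, and 0.52 and 0.42 over 14078 genes of all kinds. Genes are not independent replicates, and these values are a description. In the 3 bins under 50 kb the oxidative phosphorylation genes lay below all genes, whose medians were 0.15 in the null and 0.12 in the heterozygous library under 5 kb, 0.39 and 0.26 at 5 to 20 kb, and 0.74 and 0.48 at 20 to 50 kb. At 50 kb or more the 2 genes lay above all genes, which had 1.19 and 0.80. The difference between libraries in free RNA ran the other way along span, with a median log2 ratio of null over heterozygous of 0.42 under 5 kb, 0.37 at 5 to 20 kb and 0.09 at 20 to 50 kb, against 0.01, -0.10 and -0.34 for all genes in the same bins. The genes lower in null free RNA, Ndufs1, Ndufs4, Uqcrc2 and Ndufv2, are among the long ones.

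**Figure D2:**
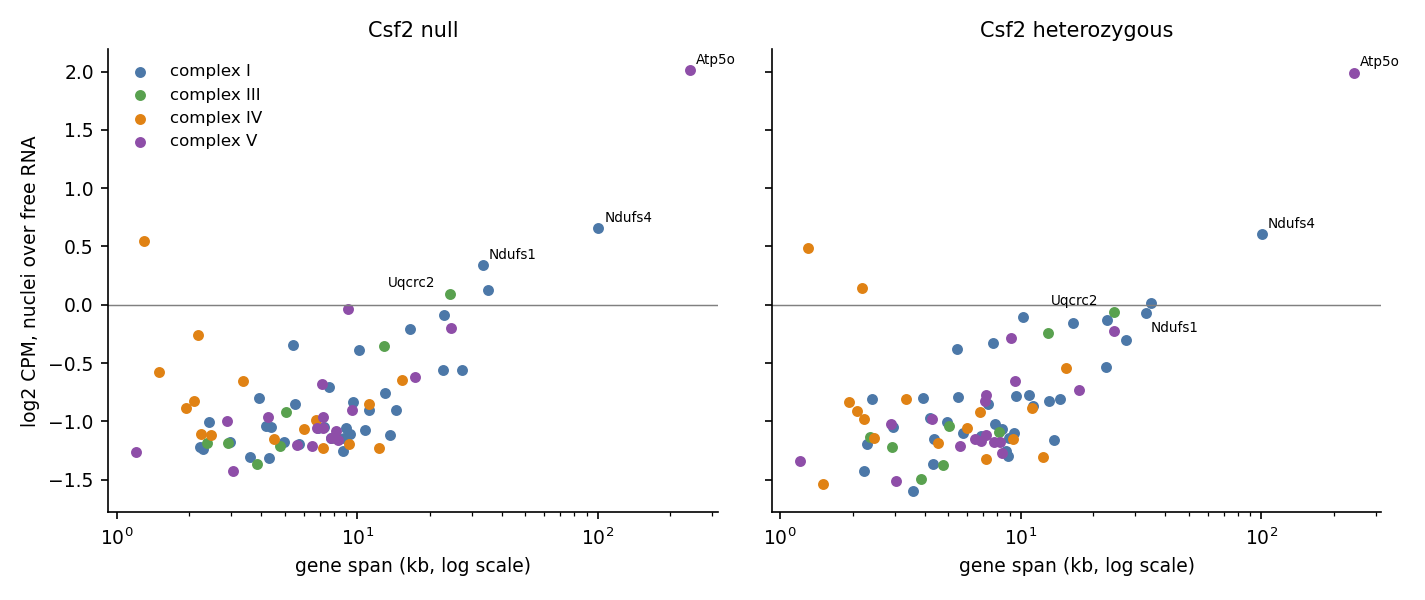
Log2 ratio of CPM in nuclei over free RNA against gene span (kb, log axis) for the 78 nuclear-encoded genes with enough UMIs, coloured by complex, in the null (left) and heterozygous (right) library. Most genes under 20 kb lie near -1, while Uqcrc2, Ndufs1 and Ndufs4 lie near or above 0 and the uncertain Atp5o model lies near 2.

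The shares also fell with the depth of a barcode. In barcodes of 500 to 700 UMIs nuclear-encoded genes took 1.04% of UMIs in the null and 0.801% in the heterozygous library, and in barcodes of 4000 to 8000 UMIs they took 0.432% and 0.372%. The mt- share fell further, from 1.34% to 0.331% across these depths in the null library and from 1.29% to 0.297% in the heterozygous library. The secretory share fell alongside, from 46.4% to 13.3% across these depths in the null library and from 38.1% to 12.2% in the heterozygous library. The null library had the higher nuclear-encoded share in every depth bin that held barcodes of both libraries. For mt- genes the order of the libraries changed in 3 of these 7 bins. The mt- share was 0.949% in the null and 1.14% in the heterozygous library between 1000 and 1500 UMIs, a bin that holds 6562 null and 10860 heterozygous barcodes. Among all barcodes of 1000 UMIs or more, 3787 null and 10888 heterozygous ones were in clusters called free RNA. The bins therefore mix nuclei and free RNA in unlike proportions in the 2 libraries. The mt- share was 0.593% in the null and 0.669% in the heterozygous library between 1500 and 2000 UMIs, and 0.296% and 0.395% at 8000 UMIs or more.

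**Figure D3:**
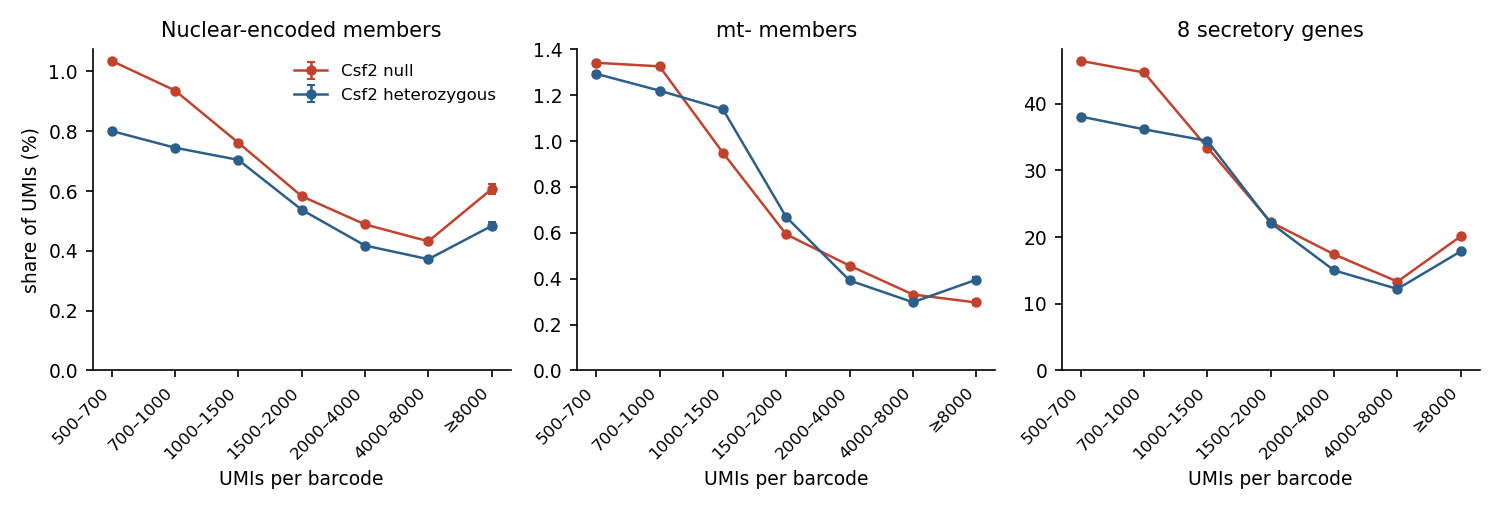
Share of UMIs (%) taken by nuclear-encoded genes, mt- genes and 8 secretory genes in barcodes binned by UMIs, for the null and heterozygous libraries, with 95% counting intervals mostly smaller than the points. All 3 shares fall with depth up to 8000 UMIs. The deepest bin holds 47 null and 105 heterozygous barcodes.

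Luminal duct-like nuclei carried the largest share of nuclear-encoded oxidative phosphorylation transcripts of the 13 classes with at least 50 nuclei in each library. When barcodes of at least 2000 UMIs were clustered anew, they were second in the null library, at 0.632% after 0.639% in cluster 11 of that clustering, and first in the heterozygous library at 0.611%. Nuclei were put in this class by luminal duct markers such as Klk1, Egf and the sodium channel subunits Scnn1a, Scnn1b and Scnn1g, and 9 of its 10 markers stood out. Its nuclear-encoded share was 0.688% in 1053 null nuclei and 0.607% in 858 heterozygous nuclei, against 0.505% and 0.388% in the other nuclei of each library, log2 ratios of 0.44 in the null and 0.64 in the heterozygous library. Free RNA is part of every class, and the secretory share was lower in luminal duct-like nuclei than in the other nuclei of the same library, at 15.99% in the null and 11.9% in the heterozygous library, against 18.9% and 14.8%. With free RNA subtracted in proportion to the secretory genes, the luminal duct-like share was 0.531% in the null and 0.532% in the heterozygous library. The other 11 non-acinar classes lay between 0.0607% and 0.312% in the null and between 0.0479% and 0.379% in the heterozygous library. The same subtraction put the mt- share below 0 in most classes. A share cannot lie below 0, so it took away too much there, and all values with free RNA subtracted are rough. Smgc, among the secretory genes, also served as an intercalated duct marker.

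Most of the genes were higher in this class than in other nuclei. Of 77 measured nuclear-encoded genes 71 were above the other nuclei in both libraries, with no such count for all genes given here. Past the fold 25 were higher, 32.5% against 13.7% of all 12967 genes. The median log2 ratio over other nuclei was 0.40 in the null and 0.52 in the heterozygous library, where that of all genes was -0.04 and -0.09. The genes past the fold were 14 of 36 of complex I, 2 of 8 of complex III, 5 of 15 of complex IV and 4 of 18 of complex V. One gene, Ndufa4l2, was lower, where 22.2% of all genes were. Ribosomal protein genes, which are short and abundant in free RNA as well, gave 3 of 95 past the fold, with a median of -0.03 in each library.

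Several subunits, core ones among them, were picked here after their values were seen and had log2 ratios over other nuclei of 0.51 to 1.10. Atp5c1, the gamma subunit that forms the rotating central stalk of the ATP synthase, had 508 UMIs (204 CPM) in null and 554 UMIs (193 CPM) in heterozygous luminal duct-like nuclei, against 101 and 90.3 CPM in the other nuclei. Its log2 ratio was 1.01 in the null and 1.10 in the heterozygous library. Atp5a1, the alpha subunit, had 343 CPM in null and 316 CPM in heterozygous luminal duct-like nuclei, against 205 and 152 CPM in the others (0.75 in the null and 1.06 in the heterozygous library). Ndufv2, a core subunit of the NADH-oxidising module, had ratios of 0.86 in the null and 1.08 in the heterozygous library. Ndufs1, of the same module, had 101 CPM in null and 121 CPM in heterozygous luminal duct-like nuclei, against 57.0 and 63.7 CPM in the others. Uqcrc2 had 113 CPM in null and 116 CPM in heterozygous luminal duct-like nuclei, against 60.0 and 60.1 CPM in the others (0.91 and 0.95). Cox5a, a nuclear-encoded subunit of complex IV, had ratios of 0.69 and 0.96, and Cox4i1 had 0.51 and 0.87.

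The rule that ranks genes by class over free RNA put Ndufs4, Ndufa10 and the uncertain Atp5o model first in this class. Ndufs4 had 603 UMIs (242.5 CPM) in null and 899 UMIs (313.4 CPM) in heterozygous luminal duct-like nuclei, 1.303 and 1.43 above free RNA on the log2 scale. It was among the leading 3 by this rule in 12 of the 13 classes, all but fibroblast-like, where the Atp5o model, Cox6b2 and Ndufa4l2 led.

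Mitochondrial transcripts of the luminal duct-like class were closer to the rest. The mt- share was 0.530% in null and 0.439% in heterozygous luminal duct-like nuclei, log2 ratios over other nuclei of 0.15 in the null and 0.27 in the heterozygous library. Of the 13 mt- mRNAs 10 were above other nuclei in both libraries and 0 passed the fold. For mt-Co1 there were 778.4 CPM in null and 556.7 CPM in heterozygous luminal duct-like nuclei, against 686 and 457.1 CPM in the others. The median luminal duct-like nucleus had 0.477% mt- UMIs in the null and 0.349% in the heterozygous library. Acinar-like nuclei had medians of 0.511% and 0.364%, and fibroblast-like nuclei 0.432% and 0.341%. Barcodes with at least 5% mt- UMIs touched this class. In the null library 4 luminal duct-like nuclei had 1009 mt- UMIs of their 18589 UMIs, and 5 heterozygous ones had 1361 of 22198. The mt- ratios over other nuclei given above include these barcodes. Without such barcodes the log2 ratio of the nuclear-encoded share over other nuclei was 0.40 in the null and 0.62 in the heterozygous library.

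**Figure D4:**
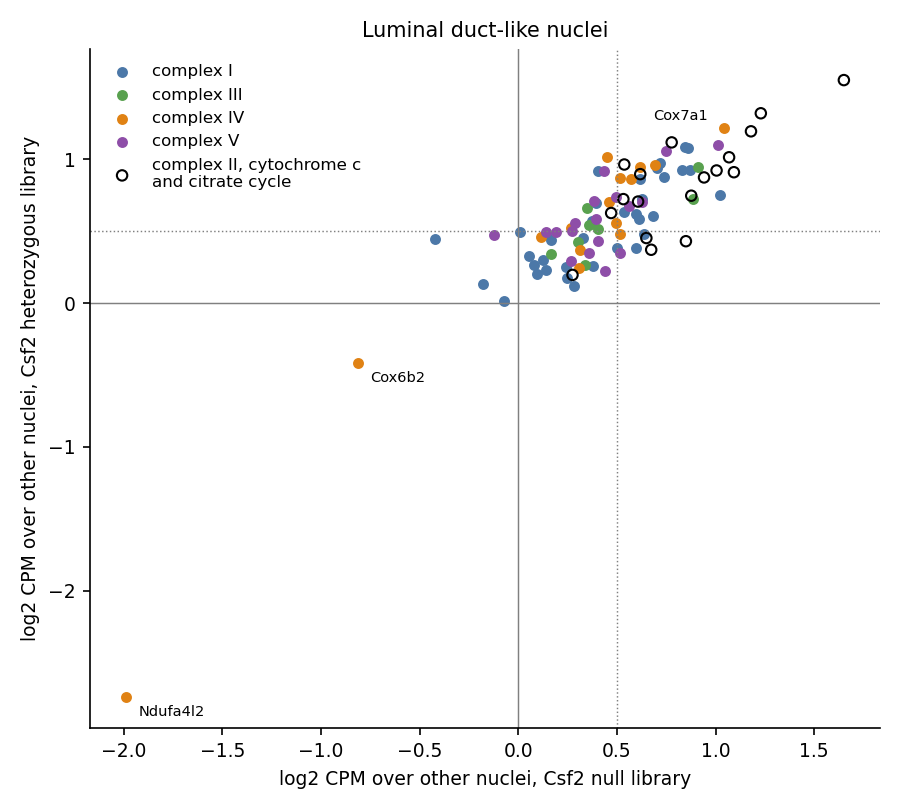
Log2 ratio of CPM in luminal duct-like nuclei over the other nuclei, in the null (horizontal axis) and heterozygous (vertical axis) library, for the 77 measured nuclear-encoded genes by complex and, as open circles, for genes of complex II, cytochrome c and the citrate cycle. Dotted lines mark a log2 ratio of 0.5. Most genes lie in the upper right, and Ndufa4l2 and Cox6b2 lie in the lower left.

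Other mitochondrial genes, listed by pathway and free to take part in the clustering, were counted in luminal duct-like nuclei in the same way, where 13.7% of all genes were higher and 22.2% lower than in other nuclei. Of the 5 genes of complex II and cytochrome c, 4 were higher than in other nuclei in both libraries, among them Sdha, the flavin subunit of succinate dehydrogenase (166 CPM in null and 145 CPM in heterozygous luminal duct-like nuclei, log2 ratios over other nuclei 1.09 and 0.91). Of 13 citrate cycle genes 9 were higher, with medians of 0.85 in the null and 0.87 in the heterozygous library. Idh3a, a subunit of NAD-dependent isocitrate dehydrogenase, had ratios of 1.65 and 1.55, and Ogdh, of the 2-oxoglutarate dehydrogenase complex, 1.18 and 1.19. Assembly factors were raised less uniformly. For complex I 4 of 15 were higher, for complex III 2 of 6, for complex IV 6 of 20 with 1 lower, and for the ATP synthase 2 of 3. Genes that maintain or express mitochondrial DNA gave 1 of 14, which is below the 13.7% of all genes.

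Of 8 measured regulators, 4 were higher and 1 was lower, beside the same 13.7% and 22.2% of all genes. Ppargc1a, the coactivator PGC-1alpha that drives mitochondrial biogenesis, had 4772 UMIs (1919 CPM) in null and 16332 UMIs (5693 CPM) in heterozygous luminal duct-like nuclei. It was higher than in other nuclei by log2 ratios of 3.51 in the null and 4.06 in the heterozygous library, and its ratio of null over heterozygous within the class was -1.57 (-1.62 to -1.52). In free RNA it had 158 CPM in the null and 529 CPM in the heterozygous library (log2 ratio -1.74). Esrrg, an orphan nuclear receptor that acts with PGC-1alpha, had 8728 CPM in null and 9901 CPM in heterozygous luminal duct-like nuclei, ratios over other nuclei of 1.36 and 1.38 and a ratio of null over heterozygous of -0.18 (-0.21 to -0.16). Ppargc1b and Esrra, the related coactivator and receptor, had ratios over other nuclei of 2.31 and 1.41 in the null and 2.47 and 1.59 in the heterozygous library. The ratio of null over heterozygous for the nuclear-encoded share of the same nuclei was 0.18 (0.15 to 0.21). It was 0.05 (0.01 to 0.09) with barcodes of at least 2000 UMIs clustered anew, and the share with free RNA subtracted, given above, was 0.531% in the null and 0.532% in the heterozygous library.

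The promoters of 66 of the 84 nuclear-encoded genes were matched by gene identifier, or else by symbol, in a RefSeq table (build GRCm38.p6, 250 bases before to 50 bases after each start). They were searched on both strands for 4 letter strings of factors known to bind oxidative phosphorylation promoters. The NRF1 string GCGCATGCG was in 8 of 66 promoters (12.1%), against 1.95% of 27025 promoters of all genes. The YY1 string AAGATGGCG was in 7 (10.6%), against 1.64% of all. The GABPA string CCGGAAGTG was in 2 (3.03%, against 2.25%), and the string TCAAGGTCA of the estrogen-related receptors was in 1 (1.52%, against 0.466%). At least 1 of the 4 was in 18 of 66 promoters (27.3%), against 6.01% of all. Among the 20 matched genes raised in luminal duct-like nuclei the NRF1 string was in 2 promoters, the GABPA and YY1 strings in 1 each and the receptor string in 0. Among the other 46 the NRF1 and YY1 strings were in 6 each and the GABPA and receptor strings in 1 each. A match is a string of letters and not a measured site. The promoters below show where such strings stand in a gene raised in luminal duct-like nuclei (Ndufa8), in a gene with a large ratio of null over heterozygous in acinar-like and luminal duct-like nuclei (Ndufa11), and in the gene with the receptor string (Atp5g3). Each is the 250 bases before the start, 5′ to 3′ on the strand of the gene, with the string in capitals, and the NRF1 string of Ndufa8 and the receptor string of Atp5g3 read on the opposite strand. In Ndufa11 the NRF1 string matches on both strands, so the capitals cover the overlap of 2 matches. Ndufa8 lies at chr2:36049339-36049588 on the minus strand, Ndufa11 at chr17:56717512-56717761 on the plus strand and Atp5g3 at chr2:73911327-73911576 on the minus strand.
Ndufa8: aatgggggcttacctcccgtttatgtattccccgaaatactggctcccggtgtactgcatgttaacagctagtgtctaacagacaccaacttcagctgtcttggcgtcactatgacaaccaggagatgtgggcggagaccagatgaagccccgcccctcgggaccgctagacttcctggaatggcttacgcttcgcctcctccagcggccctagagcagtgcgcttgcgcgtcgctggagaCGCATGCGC
Ndufa11: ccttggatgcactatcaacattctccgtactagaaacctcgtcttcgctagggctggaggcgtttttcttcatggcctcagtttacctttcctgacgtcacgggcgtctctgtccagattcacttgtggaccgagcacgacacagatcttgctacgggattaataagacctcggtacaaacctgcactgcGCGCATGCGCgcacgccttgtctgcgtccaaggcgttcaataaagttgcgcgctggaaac
Atp5g3: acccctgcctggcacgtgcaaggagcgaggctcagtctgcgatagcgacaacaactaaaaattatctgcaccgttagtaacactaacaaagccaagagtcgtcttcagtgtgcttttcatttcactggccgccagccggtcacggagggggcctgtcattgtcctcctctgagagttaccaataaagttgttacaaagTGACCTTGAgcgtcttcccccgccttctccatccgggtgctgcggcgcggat

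Ionocyte-like nuclei, which in the gland's ducts carry proton pumps and the chloride channel Cftr and were named from Foxi1, Ascl3 and V-ATPase subunits, came second in the heterozygous library. Their nuclear-encoded share was 0.554% in 204 null nuclei and 0.515% in 192 heterozygous nuclei, log2 ratios over other nuclei of 0.09 in the null and 0.33 in the heterozygous library. In the null library the intercalated duct-like class had 0.556%, and its interval overlapped that of the ionocyte-like class. Only 4 of 77 genes were higher past the fold in ionocyte-like nuclei in both libraries (all genes 9.14%), and 0 were lower (all genes 22.4%). Those higher were Ndufa5, Cox7a1, Cox6b2 and the uncertain Atp5o model, named here after their values were seen. Cox7a1 rested on 4 null and 10 heterozygous UMIs, and Cox6b2 on 4 and 8.

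The other classes held lower shares. Endothelial-like nuclei had 0.541% in the null and 0.476% in the heterozygous library, seromucous acinar-like nuclei 0.522% and 0.390%, and macrophage-like nuclei 0.495% and 0.393%. The median endothelial-like nucleus had 0.511% in the null but 0.362% in the heterozygous library. The summed heterozygous share of this class therefore does not describe its typical nucleus. Which barcodes raise it was not tested. Schwann-like nuclei had 0.485% and 0.380%, and fibroblast-like nuclei 0.485% and 0.369%. In 5 unnamed clusters the shares ran from 0.440% to 0.505% in the null and from 0.324% to 0.408% in the heterozygous library. The lowest heterozygous share belonged to cluster 10 (leading genes Hpse2, Mobp and Adcy2), and cluster 3, led by the mitotic genes Nuf2, Knl1 and Kif4, had 0.440% and 0.379%. Acinar-like nuclei, the gland's main secretory cells, had 0 of 77 genes higher (all genes 9.01%) and 3 lower (all genes 30.9%) than other nuclei, and fibroblast-like nuclei had 3 higher (all genes 16.7%) and 0 lower (all genes 20.4%). In fibroblast-like nuclei 57 of 77 genes were below the other nuclei in both libraries, with no such count for all genes given here.

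**Figure D5:**
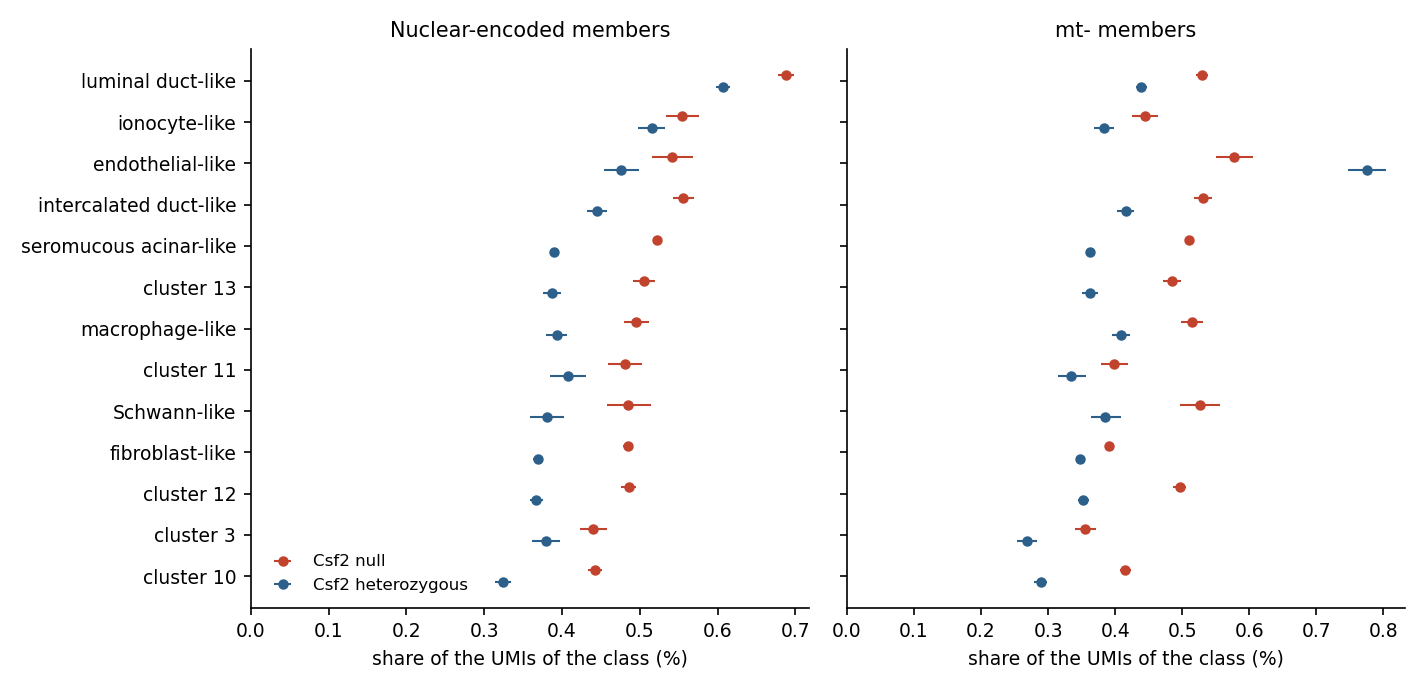
Share of a class's UMIs (%) taken by nuclear-encoded (left) and mt- (right) genes in the 13 classes with at least 50 nuclei in each library, null above heterozygous in each row, with 95% counting intervals. Luminal duct-like nuclei stand highest on the left at 0.688% and 0.607%, and endothelial-like nuclei of the heterozygous library stand highest on the right at 0.775%.

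Complex IV has isoform pairs whose second member is restricted to some tissues, and the common member dominated here. In free RNA Cox7a2 had 9420 UMIs in the null and 6484 in the heterozygous library, while Cox7a1, the heart and muscle isoform, had 320 and 249. Cox6a1 had 5833 and 4375 UMIs against 4 and 2 for its muscle isoform Cox6a2. Cox6b1 had 6283 and 4341 UMIs against 76 and 72 for Cox6b2, known as a testis isoform. Cox8a had 11616 and 6851 UMIs against 70 and 57 for Cox8b and 6 and 2 for Cox8c. Cox4i2, the isoform of subunit 4 known from lung, had 18 and 14 UMIs, Cox7b2 had 9 and 9, and the processed pseudogene Cox5b-ps had 44 and 40. Its counts are uncertain, since it could share reads with Cox5b. Cox7a2l had 3221 UMIs in the null and 2124 in the heterozygous library.

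Some rare isoforms were uneven among classes. Ndufa4l2, the hypoxia-induced relative of the complex IV subunit Ndufa4, had 50 UMIs (11.1 CPM) in null and 37 UMIs (9.16 CPM) in heterozygous fibroblast-like nuclei, against 41 and 19 UMIs (1.58 and 0.846 CPM) in all other nuclei. In luminal duct-like nuclei it had 2 and 1 UMIs. Ndufa4 itself had 8745 UMIs in null and 5923 UMIs in heterozygous free RNA. The free-RNA ratio of null over heterozygous for Ndufa4l2 was 0.90 (0.48 to 1.33), from 146 UMIs in the null and 71 UMIs in the heterozygous library. Cox6b2 had 32 UMIs (7.13 CPM) in null and 26 UMIs (6.44 CPM) in heterozygous fibroblast-like nuclei, against 1.97 and 2.05 CPM in the other nuclei, and unlike most short genes of the set it was higher in nuclei than in free RNA (0.55 in the null and 0.48 in the heterozygous library). Cox7a1 had 20 UMIs (8.04 CPM) in null and 22 UMIs (7.67 CPM) in heterozygous luminal duct-like nuclei, against 3.90 and 3.30 CPM in the others. Over the few pericyte and smooth muscle-like nuclei, 25 null and 15 heterozygous, Cox4i2 had 4 UMIs (88.0 CPM, 23.98 to 225) in the null and 1 UMI (21.4 CPM, 0.543 to 119) in the heterozygous library, of 13 and 7 UMIs over all nuclei.

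Within classes the null library again had the larger nuclear-encoded share, in 13 of 13 classes. The log2 ratio of null over heterozygous ran from 0.11 (0.03 to 0.18) in ionocyte-like nuclei to 0.45 (0.40 to 0.50) in cluster 10, with 0.42 (0.41 to 0.44) in acinar-like and 0.39 (0.36 to 0.42) in fibroblast-like nuclei. The secretory share moved with it: it was higher in the null library in 13 of 13 classes, by log2 ratios of 0.08 in endothelial-like to 0.51 in Schwann-like nuclei. With free RNA subtracted, the nuclear-encoded share was higher in the null library in 8 of 12 non-acinar classes, with the limit of the subtraction given above. Heterozygous nuclei were deeper, and in nuclei of 2000 to 4000 UMIs the null library was higher in 11 of 11 classes with enough nuclei, by 0.30 (0.28 to 0.33) in acinar-like and 0.14 (0.10 to 0.18) in luminal duct-like nuclei. The intervals for cluster 3 and the ionocyte-like class included 0 there, and the secretory share was higher in the null library in all 11. The endothelial-like ratio at this depth was 0.55 (0.40 to 0.69), from 0.542% in the null and 0.371% in the heterozygous library. When barcodes of at least 2000 UMIs were clustered anew, the luminal duct-like ratio was 0.05 (0.01 to 0.09) and the ionocyte-like ratio 0.24 (0.15 to 0.32).

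Gene by gene, the ratios within classes leaned to the null library in most classes. In acinar-like nuclei 30 of 75 nuclear-encoded genes were higher in the null library and 0 were lower, where 7.84% of all genes were higher and 8.78% lower. In fibroblast-like nuclei 27 of 76 were higher (all genes 8.96%), in cluster 12 it was 27 of 74 (7.66%), and in cluster 10 it was 34 of 73 (9.08%). None of the genes was lower in these 3, where 7.02%, 7.96% and 7.48% of all genes were. In cluster 13, led by Hs3st5, Myh11 and Synpo2 among others, 32 of 72 were higher (7.33%) and 1 was lower (10.3%). In intercalated duct-like nuclei 24 of 71 were higher (7.71%) and 1 was lower (10.1%), and in macrophage-like nuclei 24 of 62 were higher (7.58%) and 2 were lower (10.9%). Fewer genes could be measured in smaller classes. In ionocyte-like nuclei 10 of 54 were higher (7.76%) and 1 was lower (12.8%), and in cluster 3 it was 9 of 34 (9.26%) and 1 (11.1%). Endothelial-like nuclei had 8 of 30 higher (8.39%), cluster 11, led by Lef1, Edar and Scel, had 4 of 17 (7.68%) and Schwann-like nuclei had 2 of 8 (10.8%), with 0 lower in each, where 12.3%, 12.2% and 20.1% of all genes were lower. Luminal duct-like nuclei stood nearest to the background, with 7 of 74 higher (7.51%) and 0 lower (7.02%). Whether the classes differ in this was not tested.

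The genes of this paragraph are those with the highest ratios of null over heterozygous in their class, so their values describe the upper end and support nothing about the rest. In acinar-like nuclei Ndufa1 had 558 UMIs (39.7 CPM) in the null and 246 UMIs (21.6 CPM) in the heterozygous library (log2 ratio 0.88, 0.66 to 1.10), and Cox7c had 3184 and 1544 UMIs (0.74). Ndufa11, a membrane-arm subunit, had 671 and 311 UMIs (0.81). In fibroblast-like nuclei Atp5h, the d subunit of the ATP synthase stalk, had 322 UMIs in the null and 158 UMIs in the heterozygous library (0.87), and Uqcrb had 316 and 167 (0.77). In macrophage-like nuclei, the cells that GM-CSF acts on, Ndufa13 had 47 UMIs (63.4 CPM) in the null and 19 UMIs (23.2 CPM) in the heterozygous library, a log2 ratio of 1.45 (0.66 to 2.30). Cox8a had a ratio of 0.91 there, and Uqcrq 0.90. In luminal duct-like nuclei Cox8a had 451 and 321 UMIs (0.70), Ndufa11 158 and 108 (0.75) and Ndufa4 276 and 212 (0.59).

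Some genes low in null free RNA were also low within classes. The ratios below 0 given here are among the lowest of their class, so they describe the lower end and support nothing about the rest. Ndufs4 had a log2 ratio of -0.37 (-0.52 to -0.22) in luminal duct-like, -0.44 (-0.74 to -0.14) in intercalated duct-like, -0.46 (-0.89 to -0.04) in macrophage-like nuclei and -0.39 (-0.67 to -0.12) in cluster 10. In endothelial-like nuclei the ratio was positive, with 53 UMIs in the null and 36 UMIs in the heterozygous library (0.83, 0.19 to 1.48). Ndufs1 had ratios of -0.19 in acinar-like, -0.26 in luminal duct-like and -0.80 (-1.36 to -0.26) in intercalated duct-like nuclei. Uqcrc2 had 31 UMIs in null and 57 UMIs in heterozygous macrophage-like nuclei (-0.73, -1.41 to -0.08). In luminal duct-like nuclei its CPM, given above, was close between the libraries. Free RNA is shared by all classes of a library, so these are not independent observations.

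The mt- share was higher in the null library in 12 of 13 classes, with log2 ratios of 0.49 (0.47 to 0.51) in acinar-like, 0.16 in fibroblast-like, 0.27 in luminal duct-like and 0.33 in macrophage-like nuclei. With free RNA subtracted it was below 0 in most classes, and 0.0928% in null and 0.0534% in heterozygous luminal duct-like nuclei. Endothelial-like nuclei were the exception, with 0.577% in 140 null nuclei and 0.775% in 126 heterozygous nuclei, a log2 ratio of -0.42 (-0.51 to -0.34). The rRNAs carried much of it: mt-Rnr2 had 435 UMIs (1434 CPM) in the null and 867 UMIs (2373 CPM) in the heterozygous library, while mt-Co2 had 147 UMIs (484.5 CPM) and 173 UMIs (473.5 CPM). In the heterozygous library 3 endothelial-like barcodes with at least 5% mt- UMIs held 988 mt- UMIs of their 14873 UMIs. Without them the share was 0.577% in the null and 0.526% in the heterozygous library, a log2 ratio of 0.13 (0.04 to 0.23), and the median nucleus had 0.4996% in the null and 0.431% in the heterozygous library. Summed over 5 erythroid markers, these endothelial-like nuclei had 9.89 CPM in the null and 93.1 CPM in the heterozygous library, where the other 12 classes had 8.64 to 17.6 CPM in the null and 19.5 to 43.3 CPM in the heterozygous library.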

How the data were processed

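Unselected salivary gland nuclei of mice aged 20 days were profiled with a 10x 3' kit (version 2 per the labels), as 1 Csf2-null and 1 heterozygous library. The deposited values are raw UMI counts per gene and barcode, made by the authors with Cell Ranger 7.0.0 on build GRCm39, per the submitters' processing notes. The annotation and whether intronic reads were counted are not given in the sources used here. A 3' tag is meant to count a transcript once whatever its length, but ratios of nuclei over free RNA rose with gene span here. Whether length affects the counts was not tested.

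Barcodes under 1000 UMIs were summed as free RNA. The rest were clustered with Scanpy 1.11.5 and igraph 0.11.9 on 2000 variable genes (without the 121 genes, ribosomal protein genes, sex-linked genes and Csf2), 30 components, 20 neighbours and Leiden resolution 1. Clusters whose share of the 8 secretory genes reached 0.75 of that of free RNA were called free RNA. A cluster was named where at least 3 markers of a class were 2-fold higher than in the rest with 10 UMIs or more, with a lead of 2 markers over the next class. A further condition was that no other class had more markers than this class among the 10 leading genes of the cluster. Cluster 13, with 9 markers of a class against 2 of the next, and cluster 10, with 3 against 1, stayed unnamed by it. The naming rule, and the joining of 2 acinar clusters that were each mostly from 1 library, were set after the clusters were seen. The 121 genes and all lists were chosen with earlier results of these data known.

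UMIs were summed per library and class. Shares have exact binomial, levels exact Poisson and ratios exact conditional binomial intervals (95%), and the code was tested on simulated data. A class was compared with at least 50 nuclei in each library. A gene was measured with at least 50 UMIs over both libraries, or, for nuclei over free RNA and class over other nuclei, in each library. Doublets were not removed: Scrublet marked 303 of 8511 heterozygous but 4 of 13881 null nuclei (0.0288%), where it was taken not to have worked. Gene spans came from GENCODE M21 (GRCm38) by identifier, which covers all 84 nuclear-encoded genes.

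Nuclear-encoded genes were named by rules: all mt- genes, the 5 genes per complex with the most UMIs in free RNA, the 5 highest and 5 lowest between genotypes in free RNA and up to 3 in each class, the 3 leading each class over free RNA, and isoform pairs. One gene these rules name is not reported here. Other named genes are said to have been picked after their values were seen. Alternatives covered the free-RNA limit, scaling, count and fold limits, depth, mt- content, resolution, doublets, class assignment and subtraction of free RNA.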

Additional observations from a re-analysis of the deposited data

Results flagged for a closer look

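In endothelial-like nuclei the mt- share was lower in the null library, while it was higher in the null library in the 12 other classes compared. The log2 ratio of null over heterozygous was -0.42 (-0.51 to -0.34) from 140 null and 126 heterozygous nuclei. What drew attention was the opposite direction, and the difference between classes was not tested. The value turned to 0.13 without 3 heterozygous barcodes of at least 5% mt- UMIs.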

How the results depend on the processing

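No paired analysis was possible because each genotype had 1 library. In free RNA the log2 ratio of null over heterozygous for the nuclear-encoded share was 0.37 under 700 UMIs and 0.66 with CPM taken without the 20 most abundant genes and mt- genes, and for the mt- share it was 0.054 and 0.41. The number of nuclear-encoded genes past the fold was 63 with that CPM (median of all genes then -0.01). It was also 63 with ratios centred on the median of all genes. The shares of all genes past the fold with these scalings are not given here. At a log2 ratio of at least 1 the number was 0. The number lower in nuclei was 36 at that limit and 61 to 72 under the other alternatives. The null library had the higher nuclear-encoded share in 3 of 3 classes assigned by marker UMIs per nucleus and in 8 of 12 with free RNA subtracted. For luminal duct-like over other nuclei the null log2 ratio was 0.41 at 2000 UMIs or more (where cluster 11 of that clustering was first at 0.639%, ahead of 0.632%), 0.39 under 5% mt- UMIs, 0.38 at resolution 0.5, 0.47 at resolution 2.0, 0.40 without the barcodes of 5% mt- UMIs or more and 1.51 with free RNA subtracted. The heterozygous ratio was 0.60 under 5% mt- UMIs, also 0.60 at resolution 0.5, 0.67 without Scrublet doublets, 0.62 without those barcodes and 1.74 with free RNA subtracted. The subtraction put the mt- share below 0 in most classes, so values with it are rough. The endothelial-like mt- ratio turned to 0.12 under 5% mt- UMIs and 0.13 without the 3 barcodes. Of 90 alternatives for class shares, 60 stayed within the interval, 28 moved without changing sign and 2 reversed. At 2000 UMIs or more the luminal duct-like and ionocyte-like mt- ratios of null over heterozygous were 0.07 and 0.67, where the main values were 0.27 and 0.21. Depth limits the rare isoforms and mt- tRNAs most, since several have fewer than 20 UMIs in a library. The cause of these shifts was not tested. The alternatives that leave out high-mt- barcodes, subtract free RNA from the luminal duct-like class or take nuclei of 2000 to 4000 UMIs were chosen after seeing the data.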
